A study of Mus musculus with 15 samples.

Results

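Organoid lines grown from liver metastases of the third transplantation round (Met3) were compared with lines from metastases of the second round (Met2), to see how stable chromatin accessibility was late in the series and how far single lines differed. The members were 6 of the 15 libraries of the study, 3 Met3 and 3 Met2 lines, and all 43020 regions of the deposited table. Lines were assigned by their sample titles. ATAC-seq reads out accessibility: a transposase cuts and tags DNA where chromatin is open, and the tagged pieces are sequenced.

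All 15 lines are mouse colon cancer organoids with the genotype labelled AKP, from tumours in C57Bl6 recipients. The tumours arose from organoids placed in the colons of immunocompetent mice. Besides Met2 and Met3, the table holds Met1, from liver metastases of round 1, and 2 groups from primary tumours, Primary2 of round 2 and Primary3 of round 3. Every group has 3 lines. No group carries another treatment, and all lines share the genotype, so no wild-type control enters the comparison. The sources used here do not give the ancestry of a line. Lines that share an ancestor would be more alike than unrelated ones, and each p-value covers no more than the line-to-line spread seen here.

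In cancer, accessible regions outside promoters include many enhancers, the switches that tissue-specific transcription factors bind, and their pattern is a readout of cell identity. Tumour cells that move to a new organ can change this pattern, and a line passaged through several animals can keep, lose or extend such a change. Serial transplantation also selects among tumour cells, and each new line grows from the cells that seeded it. A count in a region reflects both how open the DNA is and how many copies of it the cells hold, and these cannot be told apart here. Each library pools many cells, so fewer cells with an open region and a less open region in each cell cannot be told apart either. The regions carry mm9 coordinates, and no gene annotation or genome of that build was used, so regions are named by the peak names and positions of the table and not by genes. For the same reason the tissue label was not checked against marker genes.

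The 6 libraries held between 1469502 and 2797725 counts in regions, with a median of 18 to 32 counts per region. The other 9 libraries held 285633 to 5916109 counts. No pair of the 6 libraries agreed within sampling noise. Their counts differed by 3.23 to 10.2 times the variance that sampling alone gives, by a chi-square statistic per degree of freedom. Met2 replicate 1 stood apart from the other late lines, and the main results that rest on it are given with and without it.

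Met2 replicate 1 was the least alike of the 6 lines. Across the 39952 tested regions, the log2 CPM (counts scaled to a common library size by TMM, TMM being a trimmed mean of ratios) of Met2 replicate 1 correlated with Met2 replicates 2 and 3 at r = 0.743 and 0.692, and with the 3 Met3 lines at 0.691, 0.703 and 0.714. The other 5 lines correlated with each other at 0.840 to 0.908, whichever round they came from. The closest pair of all came from different rounds, Met2 replicate 2 and Met3 replicate 2 (r = 0.908, Spearman's rho 0.907). These points are regions that share libraries and depth, so the values are descriptions without a p.

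**Figure D1:**
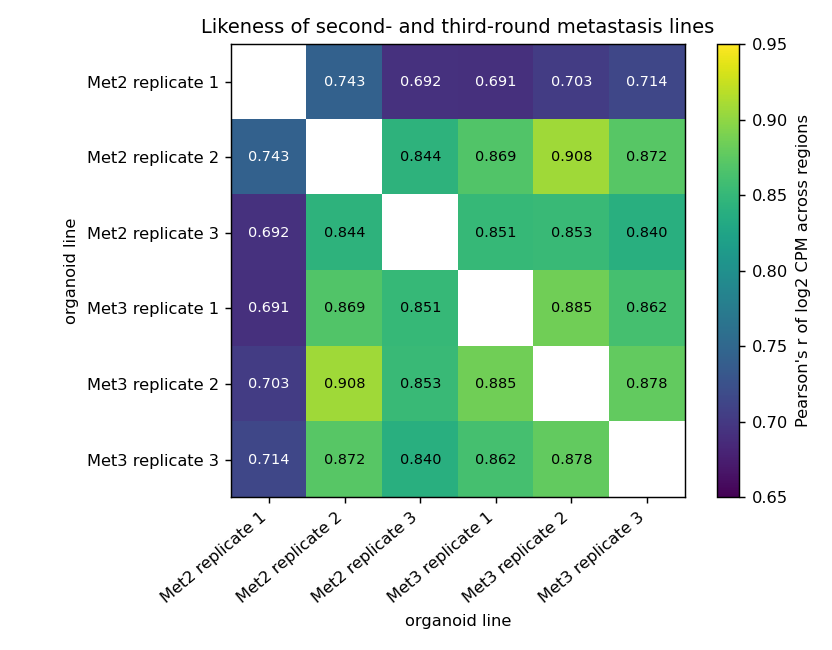
Pearson's r of log2 CPM across 39952 regions for each pair of second-round (Met2) and third-round (Met3) metastasis lines, in colour and print. Met2 replicate 1 lies between 0.691 and 0.743 with every other line, and the other 5 lines lie between 0.840 and 0.908 with each other.

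Met2 replicate 2 and replicate 3 were nearer to the Met3 lines than to their own group as a whole. The mean correlation of Met2 replicate 2 was 0.793 with its own group and 0.883 with Met3. For Met2 replicate 3 these means were 0.768 and 0.848. Both own-group means include Met2 replicate 1. Met2 replicates 2 and 3 correlated with each other at 0.844, below 0.883 for replicate 2 with Met3 and near 0.848 for replicate 3 with Met3. Each Met3 line was nearer to its own group, at 0.870 to 0.882, than to Met2, at 0.804 to 0.821. Without Met2 replicate 1 the means to Met2 were 0.860, 0.880 and 0.856 for Met3 replicates 1, 2 and 3, against 0.874, 0.882 and 0.870 within Met3, so most of that gap came with 1 line. Met2 replicate 1 was far from both, with means of 0.718 to Met2 and 0.703 to Met3.

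Likeness to the round 1 metastases was similar in range for both groups. Mean correlations with the 3 Met1 lines were 0.710, 0.750 and 0.685 in Met2 replicates 1, 2 and 3, and 0.682, 0.723 and 0.697 in Met3 replicates 1, 2 and 3. The groups overlapped, and a 2-sided exact permutation test over the 20 assignments of 3 and 3 lines gave p = 0.6. Mean correlations with the 6 primary lines were 0.658, 0.742 and 0.699 in Met2 and 0.676, 0.729 and 0.714 in Met3, with exact p = 0.8. The smallest p this design allows is 0.1.

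Line-to-line spread was wider in Met2 than in Met3, and that width came with 1 line. The biological coefficient of variation (the relative spread between lines beyond counting error) was 0.440 in Met2 and 0.274 in Met3, against 0.371 in Met1, 0.247 in Primary2 and 0.268 in Primary3. Without Met2 replicate 1, the other 2 Met2 lines gave 0.312, close to the Met3 value. Without Met2 replicate 2 or 3 the value was 0.513 or 0.455. Leaving out a Met3 line gave 0.266 to 0.280. No test of a difference in spread was run on groups of 3 lines, so these are descriptions.

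By region, the same order held for most but not all regions, and it too came mainly with Met2 replicate 1. The standard deviation of log2 CPM was larger in Met2 at 24791 regions (62.1%). Among the 19976 regions at or above the median signal its median was 0.39 on the log2 scale in Met2 and 0.29 in Met3. Over all tested regions the median SD was 0.494 in Met2, 0.380 in Met3 and 0.521 in Primary3, which holds the shallowest library. By this measure Primary3 was thus wider than Met2, unlike by the coefficient of variation. Without Met2 replicate 1, the spread of the other pair of Met2 lines was the larger in 50.4% to 53.6% of regions, depending on the pair of Met3 lines it was set against. Of the whole variation among the 6 lines, 21.9% of the sum of squares lay between the 2 groups, which hold 20% of the degrees of freedom. The share between the groups was thus near their share of the degrees of freedom. That most of the variation lay among lines of the same round follows from this design and is no separate result.

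Single regions that set 1 line apart from its group were counted next. A region counted for a line when it lay at least 4-fold above, or at least 4-fold below, both other lines of the group, among the 19976 regions at or above the median signal. Met2 replicate 1 had 486 such regions (2.43%), of which 146 lay above and 340 below. Met2 replicate 3 had 130, of which 111 lay below, and Met2 replicate 2 had 34. In Met3 the counts were 47, 17 and 29 for replicates 1, 2 and 3. With all 6 libraries thinned at random to 1469502 counts, the number was 428 in Met2 replicate 1, 111 in Met2 replicate 3 and at most 33 in any other line. The order of the 2 lines with most regions was the same at equal depth.

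**Figure D2:**
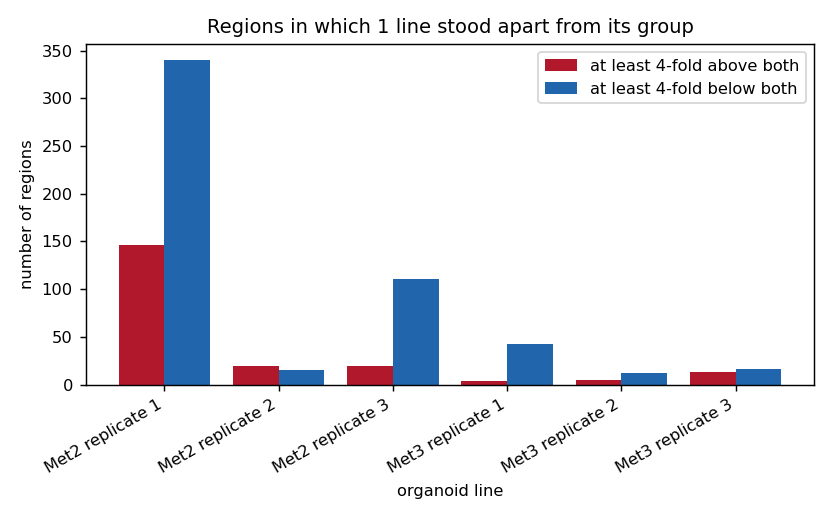
Number of regions in which a line lay at least 4-fold above (red) or below (blue) both other lines of its group, among 19976 regions at or above the median signal. Met2 replicate 1 has 146 above and 340 below, and each Met3 line has at most 43 on a side.

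The regions set apart in Met2 replicate 1 were then followed in the 12 lines outside its group. Those lines had no part in the 4-fold rule. They did enter the signal cut, a mean log2 CPM of 3.99 over all 15 libraries. At the 146 regions above, the median signal of Met2 replicate 1 was 6.20 on the log2 CPM scale, and those of Met2 replicates 2 and 3 were 3.60 and 3.05. The Met3 lines stood at 3.24, 3.03 and 3.50, next to Met2 replicates 2 and 3. The Met1 lines stood at 4.52, 4.52 and 4.85 and the primary lines between 3.77 and 4.61, above every Met3 line. At these regions, Met1 and primary lines thus lay between Met2 replicate 1 and the other late metastasis lines. The signal cut favours regions where Met1 and primary lines are high, and its part in this order was not tested.

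The 340 regions below gave the mirror image. Met2 replicate 1 had a median of 2.48, against 5.23 and 5.34 in Met2 replicates 2 and 3. The Met3 lines were at 5.42, 5.35 and 5.29, all within 0.20 of those Met2 lines. Met1 lines had medians of 4.25, 4.31 and 4.18 and primary lines between 4.33 and 4.65. On both sides the 3 Met3 lines had the level of Met2 replicates 2 and 3, and no Met3 line approached Met2 replicate 1.

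**Figure D3:**
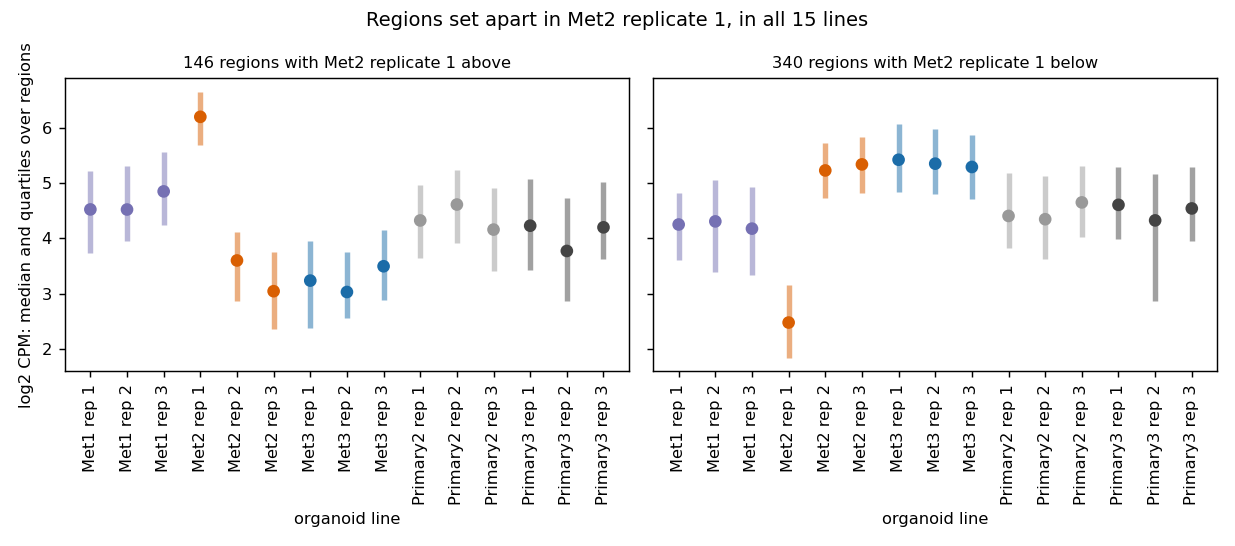
Signal (log2 CPM, dot for the median and bar for the quartiles over regions) in all 15 lines at the 146 regions where Met2 replicate 1 lay at least 4-fold above, and the 340 where it lay at least 4-fold below, Met2 replicates 2 and 3. Met3 lines lie at 3.03 to 3.50 and at 5.29 to 5.42, beside Met2 replicates 2 and 3, and Met1 and primary lines lie in between.

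The region with the largest distance in Met2 replicate 1 was peak_59071 (mm9 chromosome 3, 8865915 to 8866670). It held 183.96 CPM in Met2 replicate 1 and 1.79 and 2.80 CPM in replicates 2 and 3. The Met3 lines held 1.21, 1.53 and 1.29 CPM, the Met1 lines 7.30 to 19.2 CPM and no primary line more than 6.88 CPM, so the signal was high in a single line of 15. At peak_41544 (chromosome 17, 43020362 to 43022281) the opposite was seen. Met2 replicate 1 had 0 counts there, whereas the other 14 lines held 19.4 to 46.8 CPM. The 0 is a limit set by depth and not a measured level.

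Met2 replicate 3 lacked signal at peak_89634 (chromosome 7, 58920302 to 58921423), with 0 counts against 33.2 and 35.4 CPM in Met2 replicates 1 and 2. The Met3 lines were at 12.8, 14.1 and 24.0 CPM there. It stood farthest above its group at peak_76321 (chromosome 5, 116457789 to 116458176), with 65.0 CPM against 7.97 and 8.07 CPM. Met3 replicate 1 held 33.4 CPM at that region and Met3 replicates 2 and 3 held 12.6 and 7.77 CPM, so the higher signal was not confined to 1 line. Met2 replicate 2 stood above its group at peak_89837 (chromosome 7, 71581467 to 71582308), with 31.8 CPM against 2.66 and 2.80 CPM. There it resembled the Met3 lines, at 34.6, 20.6 and 18.1 CPM. It stood below its group at peak_94962 (chromosome 8, 14615863 to 14616937), with 4.04 CPM against 107.6 and 86.0 CPM. The Met3 lines were split at this region, at 3.64, 7.63 and 55.0 CPM.

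In Met3 no named region stood as far from the nearer of the other lines as peak_59071 did in Met2, where the distance was 5.63 on the log2 scale and 5.48 at equal depth. At equal depth the largest of the named Met3 distances was 3.34, at peak_92539. Met3 replicate 1 stood above its group at peak_23249 (chromosome 13, 20252152 to 20254084), with 74.1 CPM against 9.92 and 10.4 CPM. The Met2 lines held 80.4, 36.8 and 28.7 CPM there and no primary line more than 5.50 CPM, so Met3 replicates 2 and 3 were the late metastasis lines with low signal. Met3 replicate 1 held 0 counts at peak_16565 (chromosome 11, 107148505 to 107149342), where replicates 2 and 3 held 10.3 and 12.3 CPM. Met3 replicate 2 stood above at peak_31935 (chromosome 15, 61128504 to 61129841), with 56.5 CPM against 6.07 and 9.71 CPM. Met2 replicate 2 was also high there, at 38.1 CPM, with 7.97 and 5.59 CPM in Met2 replicates 1 and 3. Met3 replicate 2 stood below at peak_65851 (chromosome 4, 86990492 to 86991279), with 1 count (0.381 CPM) against 9.11 and 29.8 CPM. Met3 replicate 3 was high at peak_92539 (chromosome 7, 132467308 to 132468256), with 35.6 CPM against 3.04 and 2.29 CPM. It had 0 counts at peak_26801 (chromosome 14, 19294749 to 19295846), where the other Met3 lines held 9.11 and 8.01 CPM. The Met2 lines held 7.97, 12.1 and 11.2 CPM at peak_26801, near the level of Met3 replicates 1 and 2.

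No single region was called between Met3 and Met2. The edgeR quasi-likelihood test called 0 of 39952 regions (0%) at a Benjamini-Hochberg adjusted p under 0.05, and the smallest adjusted p was 0.373. At an unadjusted p under 0.05 there were 2926 regions (7.32%), 1118 higher (2.80%) and 1808 lower (4.53%) in Met3. DESeq2 called 44 regions (0.110%), 4 higher and 40 lower, and limma voom called 0. Every Met3 line lay above every Met2 line at 2408 regions (6.03%) and below at 2068 (5.18%).

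The regions near the threshold depended on Met2 replicate 1. Of the 1808 regions lower in Met3 at an unadjusted p under 0.05, Met2 replicate 1 was the highest Met2 line in 1455 (80.5%), against 36.8% of all tested regions. Of the 1118 higher regions it was the lowest Met2 line in 777 (69.5%, against 38.8% of all). It was the highest Met2 line in 34 of the 40 regions that DESeq2 called lower. Without Met2 replicate 1, the number at an unadjusted p under 0.05 fell to 1352 (3.38%), 651 higher and 701 lower, and edgeR called 0. With 1 of the other Met2 lines left out it rose. It was 4331, with 48 regions called, without replicate 2, and 3895, with 41 called, without replicate 3. Without Met3 replicate 3, 1 region was called.

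A missed threshold does not show that the rounds were alike, so the 95% intervals of the fold changes were examined. In 10362 regions (25.9%) the interval lay inside 2-fold in both directions. This share depended on signal, at 73.2% in the strongest of 4 groups of 9988 regions ranked by signal, 28.2% in the next, 2.34% in the third and 0.020% in the weakest. The median half-width of the interval was 1.01 on the log2 scale over all regions and 0.59 in the strongest group. Estimates themselves were below 2-fold in 90.0% of regions. Outside the 10362 regions whose interval lay inside 2-fold, a 2-fold change between the rounds was not excluded at this depth and spread.

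The regions with most signal among those bounded within 2-fold were peak_34912, peak_14837 and peak_13840. At peak_34912 (chromosome 15, 101846543 to 101848773) the Met2 lines held 410.4, 503.1 and 448.7 CPM and the Met3 lines 497.5, 552.8 and 508.9 CPM. Its log2 fold change was 0.19 ± 0.19 (SE), and the lowest Met3 line lay below the highest Met2 line. At peak_13840 (chromosome 11, 74643404 to 74647218) the values were 409.1, 438.1 and 378.1 CPM in Met2 and 479.9, 502.8 and 420.2 CPM in Met3, a log2 fold change of 0.20 ± 0.17 (SE). The groups overlapped here as well. At peak_14837 (chromosome 11, 86389126 to 86395903) the Met2 lines held 345.3, 446.6 and 392.1 CPM and the Met3 lines 476.8, 763.4 and 453.9 CPM, a log2 fold change of 0.52 ± 0.19 (SE) without overlap. Met3 replicate 2 was far above the rest at that region, which lies in a 10 Mb window of chromosome 11 whose summed signal was also high in that line, described further on.

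The 6 regions with the smallest p in each direction, among those with at least the median signal and no overlap between the groups, are given as the top of a ranking and not as calls. Each had an edgeR adjusted p of 0.373, and DESeq2 called 10 of the 12, with adjusted p between 0.00879 and 0.0387. They were picked for their separation, which is therefore no result.

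Among the higher ones, peak_43211 (chromosome 17, 84397343 to 84399805) held 9.96, 40.8 and 18.2 CPM in Met2 and 56.5, 114.4 and 77.0 CPM in Met3, a log2 fold change of 1.81 ± 0.37 (SE). Primary2 held 146.1 ± 47.0 CPM and Met1 45.8 ± 11.6 CPM (SD, n = 3) there. At peak_88394 (chromosome 7, 29618704 to 29619284) the Met2 lines held 6.64, 22.9 and 18.9 CPM and the Met3 lines 79.0, 62.2 and 56.3 CPM (2.00 ± 0.43). At peak_55447 (chromosome 2, 122483468 to 122484168) the Met2 lines held 3.98, 17.5 and 25.2 CPM and the Met3 lines 92.3, 39.7 and 52.4 CPM (1.97 ± 0.49). In each of these 3 regions Met2 replicate 1 was the lowest line of all 6.

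Separation was more even at peak_94295 (chromosome 8, 3867891 to 3869348), with 7.97, 8.07 and 13.3 CPM in Met2 and 33.4, 27.5 and 34.3 CPM in Met3 (log2 fold change 1.70 ± 0.41). Primary3 was high there too, at 40.9 CPM against 15.4 CPM in Primary2, and the difference between the metastasis and primary changes was 0.27 on the log2 scale. At peak_91464 (chromosome 7, 108199306 to 108200792) the Met2 lines held 22.6, 32.7 and 21.7 CPM and the Met3 lines 54.1, 74.8 and 60.9 CPM (1.29 ± 0.28). Last in the ranking was peak_14903 (chromosome 11, 87239960 to 87241058), where the lowest Met3 line held 117.2 CPM and the highest Met2 line 92.3 CPM. At peak_14903 the highest line was Met3 replicate 2, at 177.4 CPM, in the same window of chromosome 11 as peak_14837.

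Among the lower ones, peak_72995 (chromosome 5, 52861838 to 52863026) had the smallest p. It held 71.7, 27.8 and 33.5 CPM in Met2 and 14.0, 10.3 and 10.4 CPM in Met3, a log2 fold change of -1.94 ± 0.36 (SE). Met2 replicate 1, which was high along much of chromosome 5, was the highest line. At peak_48863 (chromosome 19, 25245829 to 25247067) the Met2 lines held 60.4, 33.6 and 34.9 CPM and the Met3 lines 7.29, 14.5 and 13.6 CPM (-1.84 ± 0.36). At peak_5296 (chromosome 1, 180972024 to 180973352) they held 101.6, 24.7 and 30.1 CPM and 8.50, 9.92 and 11.7 CPM (-2.36 ± 0.50). In each of these 3 regions Met2 replicate 1 was the highest line. Without it the log2 fold changes were -1.41, -1.52 and -1.44 at peak_72995, peak_48863 and peak_5296, with edgeR adjusted p of 0.9748, 0.9748 and 1.

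The other 3 lower regions lie on chromosome 9, towards its end. At peak_104898 (108550758 to 108552184) the Met2 lines held 37.9, 37.2 and 60.8 CPM and the Met3 lines 17.6, 13.4 and 14.9 CPM, a log2 fold change of -1.57 ± 0.31 (SE). At peak_105445 (120448244 to 120449333) they held 51.1, 39.5 and 66.4 CPM and 24.3, 16.4 and 18.1 CPM (-1.42 ± 0.29). At peak_104280 (94437494 to 94439445) they held 77.0, 65.5 and 109.0 CPM and 44.3, 34.7 and 36.9 CPM (-1.11 ± 0.23). Here Met2 replicate 3 was the highest line, and Met1 held 41.0, 44.8 and 71.8 CPM on average at the 3 regions, against 45.3, 52.3 and 83.8 CPM in Met2.

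**Figure D4:**
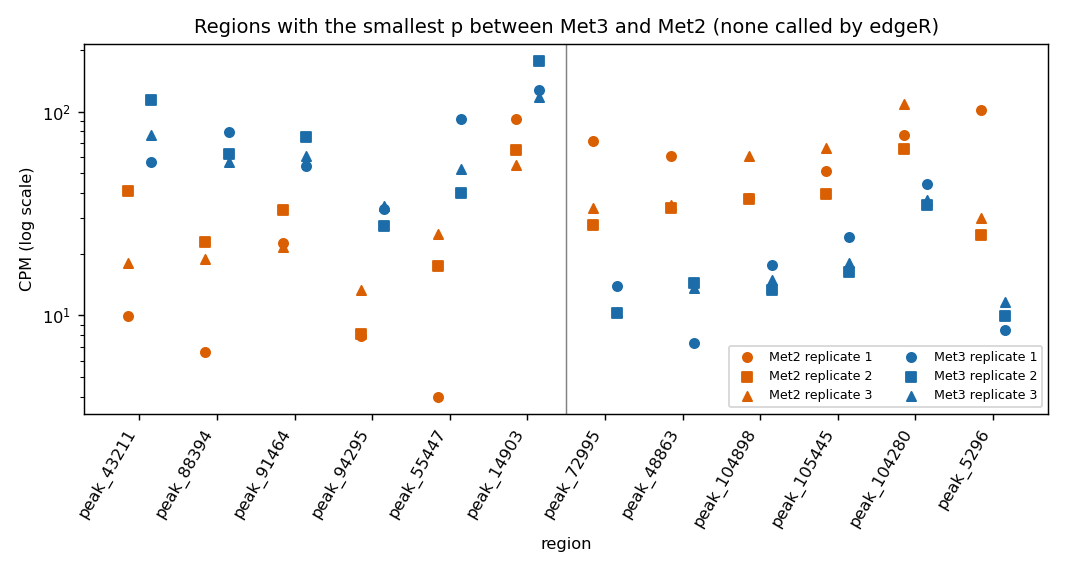
CPM on a log axis in the 3 Met2 (orange) and 3 Met3 (blue) lines, with a marker shape for each replicate number, at the 12 regions with the smallest p. The 6 regions on the left are higher and the 6 on the right lower in Met3, and Met2 replicate 1 is the lowest line at peak_43211, peak_88394 and peak_55447 and the highest at peak_72995, peak_48863 and peak_5296.

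Counts were then summed over 268 windows of 10 Mb with at least 20 regions each, to measure stretches of a chromosome with less counting error. At the end of chromosome 9, 3 neighbouring windows were lower in Met3, and they were the only ones that edgeR called (3 of 268, 1.12%). DESeq2 called the same 3 and 1 higher in Met3, on chromosome 1 from 170000001 to 180000000, where edgeR gave a log2 fold change of 0.16 ± 0.05 (SE, adjusted p = 0.342). By log2 fold change, Met3 stood at -0.56 ± 0.08 against Met2 (SE, edgeR adjusted p = 0.00156) in the window from 100000001 to 110000000, -0.53 ± 0.10 (adjusted p = 0.0100) in the next and -0.45 ± 0.09 (adjusted p = 0.0247) in the last. Elsewhere, estimates reached 0.46 on the log2 scale without a call, and the median half-width of the interval was 0.18. At an unadjusted p under 0.05 there were 27 windows, 13 higher and 14 lower. Met3 lines lay above all Met2 lines in 28 windows (10.4%) and below in 14 (5.22%).

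Relative to the mean of the 15 libraries, the first of these windows stood at 0.22, -0.04 and 0.23 in Met2 replicates 1, 2 and 3 and at -0.32, -0.31 and -0.59 in Met3 on the log2 scale. In the second the Met2 lines stood at 0.07, -0.12 and 0.33 and the Met3 lines at -0.30, -0.33 and -0.62. In the last they stood at 0.28, -0.04 and -0.15 and at -0.24, -0.46 and -0.48. The groups did not overlap in any of them, Met2 replicate 3 was nearest to Met3 in the last and replicate 2 in the others, and Met3 replicate 3 was the lowest line in each.

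These calls changed with the model and with single libraries. A fit of the 6 late lines alone called 0 windows, with log2 fold changes of -0.56, -0.53 and -0.45 and edgeR adjusted p of 0.373, 0.533 and 0.533. Its SEs were 0.11, 0.14 and 0.13, against 0.08, 0.10 and 0.09 in the fit of all 15 libraries. That fit has fewer lines to estimate the spread and takes the spread from the late lines alone. The part of each in the lost calls was not tested. Without Met3 replicate 3, only the first window was called, and the others had -0.43 (edgeR adjusted p = 0.0743) and -0.41 (0.187). The last window was not called without Met2 replicate 1 (-0.31, adjusted p = 0.0866) or without Met3 replicate 2 (-0.43, 0.152). Nor was it called without the 2 shallowest libraries of the study, Met1 replicate 1 and Primary3 replicate 2 (-0.45, edgeR adjusted p = 0.0688). Without Met2 replicate 3, 4 windows were called.

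As a share of all counts, with no scaling, the 567 regions from 100000001 on chromosome 9 held 1.42%, 1.21% and 1.43% in the Met2 lines and 1.01%, 0.993% and 0.846% in the Met3 lines. The mean was 1.35% ± 0.120 in Met2 and 0.949% ± 0.0892 in Met3 (SD, n = 3), a ratio of 0.701 that ran from 0.667 to 0.739 when a line was left out. The exact permutation p was 0.1, the smallest the design gives. The share was 1.48% ± 0.0472 in Met1, 1.27% ± 0.0276 in Primary2 and 1.30% ± 0.0371 in Primary3, so each Met3 line lay below every other line of the study. The rest of chromosome 9 held 4.29% ± 0.174 in Met2 and 4.51% ± 0.144 in Met3 (exact permutation p = 0.2). The boundary was chosen after the windows were seen, so the shares and the p of 0.1 are no separate support for the lower signal.

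The lower signal was spread over strong and weak regions of the stretch. Of its 531 tested regions, 440 (82.9%) had a negative log2 fold change, with a median of -0.54 and quartiles of -0.87 and -0.16. On other chromosomes 50.3% were negative and the median was -0.004. At an unadjusted p under 0.05, 134 of the 531 regions were lower (25.2%) and 4 higher, against 4.53% and 2.80% of all tested regions. The median was -0.65 in the 133 of these regions with the least signal and -0.53 in the 133 with the most. Without Met2 replicate 1 the median over the stretch was -0.47, and it stayed between -0.43 and -0.60 with any other late line left out. Counts in these regions entered the called windows that set the stretch. Their shares and medians, and the bins of the stretch that follow, thus describe its lower signal and are no separate support for it.

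In bins of 2 Mb, Met3 lines were below all Met2 lines in 7 of 11 bins from 100000001 onwards, and the mean difference ran from -0.69 to -0.30 on the log2 scale. Of the 33 bins before it, 3 had all Met3 lines below and 6 had all Met3 lines above the Met2 lines. From 104000001 to 112000000 all 3 Met3 lines lay between -0.45 and -0.04, relative to the mean of the 6 lines, and all Met2 lines above 0.07. The edge was not clean. Bins from 88000001 and from 94000001 were also lower, by -0.84 and -0.80, whereas those from 96000001 (0.09) and 98000001 (-0.03) were not. From 100000001 to 104000000 the difference came with Met3 replicate 3, at -0.84 and -0.74, while Met3 replicates 1 and 2 lay between -0.003 and 0.24. The bin from 118000001 was likewise low in Met3 replicate 3 alone among the 6 lines (-0.83).

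**Figure D5:**
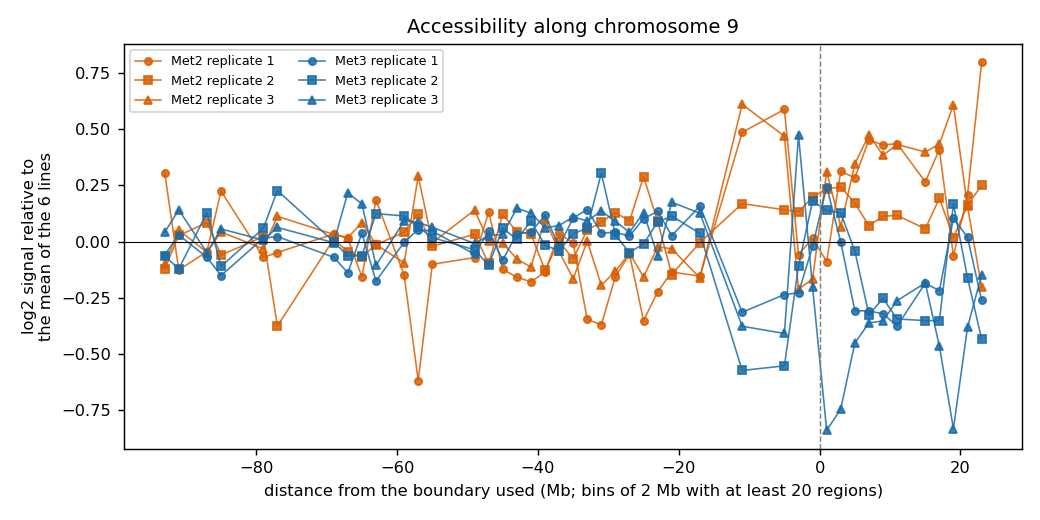
Signal in 2 Mb bins along chromosome 9, on the log2 scale relative to the mean of the 6 lines, for the Met2 (orange) and Met3 (blue) lines, against distance from position 100000001 (dashed line). Bins with under 20 regions are left out, and lines join the remaining bins. From 104000001 to 112000000 the Met3 lines lie between -0.45 and -0.04 and the Met2 lines above 0.07, and Met3 replicate 3 drops alone just after the boundary.

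Whole chromosomes shifted by small amounts between the rounds, from -0.15 to 0.10 on the log2 scale. Chromosome medians (log2 CPM minus the mean of 15 libraries, over the regions of a chromosome) did not overlap between Met2 and Met3 on 3 of 20 chromosomes, 7 and 17 with Met3 above and 9 with Met3 below. The shifts were 0.04, 0.06 and -0.06, each larger than the SD over lines in either group and with an exact permutation p of 0.1, the smallest possible. These 3 were picked out of 20 for not overlapping, and the p is not adjusted for that, so no chromosome is called. On chromosome 18 all 6 late lines stood close together, at -0.18 to -0.15 in Met2 and -0.19 to -0.13 in Met3, and on chromosome 8 at -0.14 to -0.12 and -0.18 to -0.08.

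Chromosomes 5 and 6 varied most among lines of the same round. Chromosome 5 stood at 0.62, -0.15 and 0.19 in Met2 replicates 1, 2 and 3 and at 0.31, -0.15 and 0.12 in Met3 replicates 1, 2 and 3. The SD over lines was 0.38 and 0.23, and the means differed by -0.12 (exact permutation p = 0.7), so the difference between rounds lay inside the spread among lines. Chromosome 6 stood at 0.23, 0.27 and -0.17 in Met2 and at -0.06, 0.14 and -0.19 in Met3. High and low lines were present in both rounds. Met3 replicate 3 was set apart from the other Met3 lines on chromosomes 3 (-0.26), 10 (-0.16) and 19 (0.18), where the Met2 lines stood at -0.08 to 0.01, 0.10 to 0.14 and -0.12 to -0.02.

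Single lines also stood apart over shorter stretches, at least 0.5 on the log2 scale above or below both other lines of the group over a 10 Mb window. Met2 replicate 1 had 10 such windows, all above, and 8 of them lie on chromosome 5. The largest there was the window from 10000001 to 20000000, at 1.09 against -0.09 and 0.16 in Met2 replicates 2 and 3. The other 2 were on chromosome 14 from 10000001 (0.64 against -0.15 and -0.22) and on chromosome 8 from 130000001 (0.33 against -0.42 and -0.83). Met2 replicate 3 was above its group in 2 neighbouring windows of chromosome 2 from 150000001 to 170000000 (0.46 and 0.41) and below at the start of chromosome 6 (-0.23 against 0.41 and 0.38). Met2 replicate 2 was below in 3 windows of chromosome 5. Met3 had 1 such window in all, on chromosome 11 from 80000001 to 90000000, where Met3 replicate 2 stood at 0.72 and the other Met3 lines at 0.01 and -0.02. That window holds peak_14837 and peak_14903. Of the 17 such cases in both rounds, 10 were in Met2 replicate 1.

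The step from the second to the third round was set beside the same step in primary lines. Fold changes above 2-fold were estimated at 10.0% of regions between Met3 and Met2 and at 10.3% between Primary3 and Primary2, and among regions with at least the median signal the median size of the log2 fold change was 0.25 and 0.26. Between Met3 and Met2 this share was 7.18% when Met2 replicate 1 was left out, 17.0% when replicate 2 was and 14.7% when replicate 3 was. That for the primary step was 17.5% without Primary3 replicate 3 and 10.3% to 12.8% without any other primary line, so neither share is firm enough to rank the steps. The test of the difference between both steps called 0 of 39952 regions (0%) by edgeR, and 2568 had an unadjusted p under 0.05. DESeq2 called 15 and limma voom 1, and edgeR called 3 when Met2 replicate 2 was left out, 6 when Met2 replicate 3 was and 1 when Primary2 replicate 3 was. Primary3 against Primary2 itself gave 0 calls by edgeR (0%), and 2646 regions had an unadjusted p under 0.05. Over the 268 windows of 10 Mb, edgeR called 2 between Primary3 and Primary2, against 3 between Met3 and Met2.

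Regions that differed between Met1 and the primary lines, a contrast that compares no Met2 or Met3 line, were then followed in the late lines. Between Met1 and the primary lines of both rounds, edgeR called 1809 regions higher (4.53%) and 1975 lower (4.94%) in Met1. None of either list was called between Met3 and Met2. The median log2 fold change of Met3 over Met2 was -0.16 over the regions higher in Met1 and 0.11 over those lower in Met1, against -0.01 over all tested regions. At an unadjusted p under 0.05, 38 of the 1809 were higher and 186 lower in Met3, and of the 1975, 138 were higher and 77 lower. Among all 39952 tested regions 1118 were higher (2.80%) and 1808 lower (4.53%). Without Met2 replicate 1 the medians were -0.04 and 0.03, closer to the median of all regions, and without Met2 replicate 3 they were -0.24 and 0.17. Without Met3 replicate 3 the second was 0.07. Late lines still shared the filter and the spread estimate behind these lists. A fit of the 9 libraries without Met2 and Met3 called 2002 regions higher (5.36%) and 2572 lower (6.89%) in Met1, with medians of -0.23 and 0.10, and of -0.06 and 0.02 without Met2 replicate 1.

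The lines themselves show this order. Over the regions higher in Met1, the median log2 CPM was 4.19 in Met2 replicate 1, 3.89 and 3.60 in Met2 replicates 2 and 3, and 3.77, 3.58 and 3.65 in Met3. Met1 lines had 4.32 to 4.70 and primary lines 2.36 to 3.19. On this list Met2 replicate 1 was nearest to Met1, and the other 5 late lines lay together between Met1 and the primary lines. The list was picked for Met1 lying above the primary lines, so a place in between is no separate result. Over all tested regions, Met2 replicate 1 had a mean r of 0.710 with Met1. That was below 0.750 in Met2 replicate 2 and 0.723 in Met3 replicate 2, and above the other late lines. Over the regions lower in Met1, Met2 replicate 1 had 4.51, the other 5 late lines 4.82 to 4.97, Met1 lines 3.77 to 4.07 and primary lines 5.29 to 5.63.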

How the data were processed

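ATAC-seq libraries of 15 organoid lines were made from dissociated cells and sequenced in paired-end mode, per the labels' protocols. Bowtie, Picard, SAMtools, MACS2, bedtools and the build mm9 stand in the submitters' processing notes without roles or versions. The sources used here do not give duplicate removal or the transposase offset, either of which can change counts. The authors deposited raw counts, whole numbers for each library in each region, over regions called on all samples together per the region names. Coordinates are as the table gives them.

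Weak regions were dropped with edgeR's filterByExpr (at least 10 counts in a group's worth of libraries, total at least 15), leaving 39952. Libraries were scaled by TMM, and edgeR 4.0.16 (limma 3.58.1, R 4.3.3) fitted a robust quasi-likelihood model of 5 group means to 15 libraries. Regions were called at an adjusted p (Benjamini-Hochberg) under 0.05. Standard errors are the fold change over the root of F. Log2 CPM used a prior count of 2. Windows used the same fit on summed counts. DESeq2 1.42.0, limma voom and other scalings, filters and left-out lines were alternatives. The functions were tested on simulated counts.

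Named regions were the 6 with the smallest p per direction (at least the median signal, groups not overlapping), the largest single-line distance per line and side, called windows, and the 3 strongest regions bounded within 2-fold. Members, lists and tests were chosen with earlier results of these data known. Planned gene lists and marker checks were not run, since no annotation of mm9 was used. Figures used matplotlib 3.10.9.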

Additional observations from a re-analysis of the deposited data

Results flagged for a closer look

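The step from round 2 to round 3 differed between metastasis and primary lines in 1 window of 268 (0.373%), on chromosome 9 from 100000001 to 110000000. The difference of the log2 fold changes was -0.60 ± 0.11 (SE, edgeR adjusted p = 0.0284), with -0.56 between Met3 and Met2 and 0.04 between Primary3 and Primary2. All 3 Met3 lines stood below all 3 Met2 lines there (-0.59 to -0.31 against -0.04 to 0.23), while the primary lines lay between -0.05 and 0.11. This contrast was chosen after the windows were seen. No window was called without Met2 replicate 1, Met2 replicate 3, Met3 replicate 1, Primary2 replicate 1, Primary2 replicate 3 or any of the 3 Primary3 replicates, 4 were called without Met2 replicate 2, and 2 without Primary2 replicate 2. The next window of chromosome 9 had a difference of -0.59 ± 0.14 (edgeR adjusted p = 0.0824) and was not called.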

How the results depend on the processing

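The count of regions called between Met3 and Met2 was 0 in edgeR with total counts, no filter, a stricter filter, only these groups, equal depth or chromosome medians removed, 44 by DESeq2, and 0 to 48 with a late line left out. For the difference from the primary step it was 15 by DESeq2, 1 by limma voom and 0 to 6 with a line left out. Called windows numbered 0 in the fit of Met2 and Met3 alone and 1 to 4 with a line left out, and windows with a called difference from the primary step 0 to 4. DESeq2 called 4 windows. Leaving out the 2 shallowest libraries, limma voom on windows, the contrast of steps on windows, the 9-library lists and left-out primary lines for the step size were chosen after seeing the data. The spread of Met2 ran from 0.312 to 0.513 with a line left out. That of Met3 ran from 0.266 to 0.280, and was 0.263 at equal depth, 0.229 with the stricter filter and 0.263 with chromosome medians removed. The number of regions bounded within 2-fold ran from 7028 to 11446 over total counts, the other filters, the fit of these groups alone, the block, limma voom and left-out late lines, and was not computed for the others. Of 192 alternative values of the 12 named regions none changed direction, and 20 passed the threshold, 10 of them with DESeq2. These regions were picked for a small p and no overlap in the same lines, so the kept direction is no separate support. Counts in regions of low signal limit the precision.

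Deviations of same-numbered Met2 and Met3 lines correlated at -0.07, 0.14 and -0.07. The 0.14, at replicate number 2, was the highest value of all pairs. These values are small and the ancestry of the lines is not given, so they cannot decide whether replicate numbers pair the lines. Met2 replicate 1 correlated best with Met3 replicate 3 (0.11), replicate 2 with Met3 replicate 2 and replicate 3 with Met3 replicate 1 (0.12). With the replicate number as a block, 0 regions and 3 windows were called, and 9700 regions were bounded within 2-fold.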

Other observations

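Narrow regions varied more among late metastasis lines than wide ones. Among regions at or above the median signal, the median SD of log2 CPM over lines was 0.49 in Met2 and 0.34 in Met3 at widths of 200 to 519 bp, and 0.37 and 0.28 in the widest of 4 width classes, up to 6777 bp. The share bounded within 2-fold between the rounds was 25.1% at the narrow and 55.4% at the wide end. Only 798 regions of the narrowest class reached the median signal, against 8124 of the widest, and the part of signal in this was not tested. Regions that varied in Met2 tended only weakly to vary in Met3, with Spearman's rho 0.256 of the SD across tested regions, which share libraries and depth.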
